A study of Mus musculus with 6 samples.

Results

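The citrate cycle enzymes described here are the products of 9 genes, Cs, Idh2, Idh3a, Idh3b, Idh3g, Suclg1, Suclg2, Sucla2 and Mdh2. They were taken by symbol from a table of read counts for 24062 genes. All 9 were found, and all 9 were among the 13300 genes that passed the filter on low counts. Aconitase is not analysed here.

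The libraries came from total RNA of brown adipose tissue, a heat-producing fat depot, of male C57BL/6 mice aged 12 weeks. In 3 libraries the mice were labelled FAM195A knock out, and in 3 they were labelled heterozygous for FAM195A, so that mice of both groups carried a disrupted copy. No wild-type library is used here. The series presents FAM195A as a stress granule protein that binds RNA and is required for making heat in the cold. The kind of allele, the temperature at which the mice were kept and whether litters were shared are not stated in the labels used here.

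The citrate cycle runs in the mitochondrial matrix. It joins acetyl-CoA to oxaloacetate, oxidises the product stepwise to carbon dioxide, and hands the electrons to the respiratory chain. Brown adipocytes are packed with mitochondria, and the cycle takes in the acetyl-CoA made from fatty acids and glucose during heat production. Several of its enzymes are built from more than 1 kind of subunit. NAD-dependent isocitrate dehydrogenase combines the catalytic alpha subunit (Idh3a) with a beta (Idh3b) and a gamma (Idh3g) subunit. Succinyl-CoA ligase pairs a common alpha subunit (Suclg1) with either of a pair of beta subunits, Sucla2 for the form that makes ATP and Suclg2 for the form that makes GTP.

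Of the 9 genes, 3 fell in the knockout-labelled libraries, Suclg2, Idh3g and Idh3b, and none rose. All 9 had log2 fold changes below 0, from -1.60 for Suclg2 to -0.01 for Idh3a, with a median of -0.85, against a median of 0.02 over all genes tested. Calls were made by edgeR's quasi-likelihood test at a Benjamini-Hochberg adjusted p of 0.05 over all genes tested, where 0.534% of genes were called lower and 0.0526% higher. In 8 of the 9 genes the 3 knockout-labelled libraries lay below the 3 heterozygous-labelled ones without overlap, which was so for 9.89% of all genes tested, while 8.11% lay above without overlap and none of the 9 did. The exception was Idh3a. The count of 3 was 0 without knockout 1, knockout 2 or heterozygous 2, in fits that called 0 of all genes tested. It was also 0 without heterozygous 3, where 0.0445% of all genes tested were called lower. By DESeq2, which called 5.04% of the genes it tested lower, the count was 7. The direction below 0 of the 8 genes other than Idh3a held in each of those fits.

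The targeted gene and the other cell types set limits on these comparisons. Fam195a stood at 50.5, 82.0 and 81.3 CPM (reads scaled to the size of the library) in knockout 1, 2 and 3. In heterozygous 1, 2 and 3 it stood at 69.0, 70.5 and 103 CPM. The log2 fold change was -0.18 (SE 0.241, edgeR adjusted p = 0.896). Its transcript level thus does not bear out the labels, and with the kind of allele not stated it does not speak against them either. Each direction given is that of the libraries as labelled. Reads in genes came to 22418031 to 25084627 in the knockout-labelled libraries and 18781401 to 20471963 in the heterozygous-labelled ones. Reads not counted in genes made up 44.3%, 41.7% and 49.0% of the column total in knockout 1, 2 and 3, against 56.1%, 51.6% and 54.2% in heterozygous 1, 2 and 3, so this share separated the groups as the labels do, and its part in the changes was not tested. All 24 skeletal muscle markers tested had log2 fold changes below 0 and no overlap between groups, with a median of -2.19. Their summed level was 4288 to 7631 CPM in the knockout-labelled libraries and 12316 to 35851 CPM in the heterozygous-labelled ones, with none at 0 in any library. The summed level of 8 brown adipocyte markers was 7609 to 11905 CPM in the knockout-labelled libraries and 7611 to 9468 CPM in the heterozygous-labelled ones, and these sums overlapped. Of the 8, 1 rose, the fatty acid elongase gene Elovl3, at 161 to 216 against 86.0 to 98.9 CPM (log2 fold change 1.03, edgeR adjusted p = 0.0418), and Cidea also had no overlap, at 3441 to 4529 against 2735 to 3335 CPM (edgeR adjusted p = 0.421). The sums overlapped too for 6 adipocyte markers (16204 to 23214 against 17409 to 24636 CPM), 5 macrophage markers (105 to 206 against 71.5 to 194 CPM), 5 endothelial markers (566 to 573 against 475 to 613 CPM) and 5 lymphocyte markers (1.08 to 1.20 against 1.20 to 2.37 CPM). Of 5 red blood cell markers, the 4 globin genes were listed at 0 in every library. In whole tissue, fewer cells of a type and less RNA per cell cannot be told apart. Fold changes with a muscle score as a covariate are given below, and beyond them the part of muscle RNA in the changes was not tested.

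The start regions of the 3 genes called lower are shown first. Whether these genes are controlled together was not tested. Each is the stretch from 250 bases before to 50 bases after the RefSeq transcription start in the direction of the gene (RefSeq, GRCm38.p6). Capitals mark matches, on either strand, to the short motifs searched.
Idh3b, chr2:130284402-130284701, minus strand: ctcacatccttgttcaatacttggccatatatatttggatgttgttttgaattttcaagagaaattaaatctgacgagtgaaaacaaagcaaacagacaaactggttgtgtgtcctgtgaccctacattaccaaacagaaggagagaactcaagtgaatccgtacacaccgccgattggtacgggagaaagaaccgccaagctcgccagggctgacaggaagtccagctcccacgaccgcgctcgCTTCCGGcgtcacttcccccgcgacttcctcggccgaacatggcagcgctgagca
Idh3g, chrX:73786848-73787147, minus strand: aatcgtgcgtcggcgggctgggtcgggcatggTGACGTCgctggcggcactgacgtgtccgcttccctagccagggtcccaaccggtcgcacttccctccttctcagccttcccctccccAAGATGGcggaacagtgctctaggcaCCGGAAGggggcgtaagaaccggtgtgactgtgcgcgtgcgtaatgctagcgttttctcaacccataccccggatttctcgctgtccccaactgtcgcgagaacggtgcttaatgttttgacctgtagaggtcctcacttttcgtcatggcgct
Suclg2, chr6:95718797-95719096, minus strand: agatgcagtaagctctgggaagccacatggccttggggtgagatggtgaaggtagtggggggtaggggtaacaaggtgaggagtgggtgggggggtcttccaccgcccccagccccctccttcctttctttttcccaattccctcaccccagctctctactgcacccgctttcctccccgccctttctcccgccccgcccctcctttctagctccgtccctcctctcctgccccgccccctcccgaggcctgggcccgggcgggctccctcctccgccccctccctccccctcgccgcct
RefSeq gave such a window for 8 of the 9 genes, all but Idh3a. The motifs were AAGGTCA (half-site of estrogen-related receptors), GCGCATG (an NRF1-type core), CCGGAAG (an ETS-type core), AAGATGG (a YY1-type core) and TGACGTC (a CREB-type core), each on both strands. None of the 8 windows held AAGGTCA or GCGCATG, which 4.72% and 3.91% of all 32851 windows of this length held. Windows of 2 genes, Idh3b and Idh3g, held CCGGAAG, against 8.86% of all windows. In Idh3b the match began 5 bases before the start, on the opposite strand, and in Idh3g 104 bases before it. Idh3g also held AAGATGG, 130 bases before the start, against 6.34% of all windows, and TGACGTC, against 3.21%. The only other gene with TGACGTC was Mdh2, where the matches on the 2 strands overlap. The Suclg2 window held none of the 5 motifs. Its GC content was 67.7%, higher than in 86.8% of all windows, whereas Idh3b was at 50.3%, with 40.5% of windows lower. None of the 5 motifs was thus found in the windows of all 3 genes that fell, though Idh3b and Idh3g both held CCGGAAG. The 3 genes lay on either side of the median window of GC content.

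Citrate synthase, encoded by Cs, condenses acetyl-CoA with oxaloacetate and opens the cycle. Cs (chromosome 10, 128337734 to 128362479, plus strand, GRCm38) stood at 1286, 1237 and 1664 CPM in knockout 1, 2 and 3, against 2355, 2267 and 2205 CPM in heterozygous 1, 2 and 3. The heterozygous-labelled libraries lay close together, and knockout 3 was the highest of its group. The log2 fold change of -0.71 (SE 0.172, 95% interval -1.11 to -0.30) did not pass (edgeR adjusted p = 0.104). It passed by DESeq2 (adjusted p = 0.00177) and by limma-voom with quality weights (adjusted p = 0.0290). Csl, the citrate synthase like gene, had 4 to 12 counts per library, against 28703 to 47783 for Cs.

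Idh2 encodes the NADP-dependent mitochondrial isocitrate dehydrogenase, which makes NADPH in the matrix. Idh2 (chromosome 7, 80094846 to 80115392, minus strand) stood at 75.8, 121 and 174 CPM in knockout 1, 2 and 3, against 264, 365 and 433 CPM in heterozygous 1, 2 and 3. The groups did not overlap, but values spread more than 1.5-fold within each of them. The log2 fold change was the second lowest of the 9, at -1.52 (SE 0.324, 95% interval -2.28 to -0.76), and did not pass (edgeR adjusted p = 0.0805). It passed with the title prefix as a covariate (adjusted p = 0.0184), by DESeq2 (adjusted p = 0.000155) and by limma-voom (adjusted p = 0.0315).

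Of the 3 subunits of NAD-dependent isocitrate dehydrogenase, Idh3b and Idh3g fell and Idh3a did not pass. Idh3a, the catalytic subunit (chromosome 9, 54586334 to 54604661, plus strand), stood at 1565, 1697 and 2238 CPM in knockout 1, 2 and 3, against 1726, 1724 and 2092 CPM in heterozygous 1, 2 and 3. The heterozygous-labelled values lay within the range of the knockout-labelled ones, and knockout 3 held the highest value of all 6 libraries. The log2 fold change was -0.01 (SE 0.193, edgeR adjusted p = 0.992). Its 95% interval ran from -0.46 to 0.44, which is 72.7% to 136% of the level in the heterozygous-labelled libraries.

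Idh3b (chromosome 2, 130279309 to 130284547, minus strand) stood at 573, 668 and 803 CPM in knockout 1, 2 and 3, against 1445, 1442 and 1426 CPM in heterozygous 1, 2 and 3. All 3 knockout-labelled libraries lay far below the others, which differed little among themselves. Idh3b fell by 1.08 on the log2 scale (SE 0.169, 95% interval -1.47 to -0.68, edgeR adjusted p = 0.0499), to 47.4% of the heterozygous-labelled level. That adjusted p is at the threshold, and Idh3b was no longer called with RLE scaling (adjusted p = 0.0519), without robust estimation (0.0560) or with muscle markers left out of the library sizes (0.0535), at log2 fold changes of -1.08 in all 3 fits. The gene shares 5 exon bases with Nop56 on the opposite strand.

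Idh3g, on the X chromosome (73778963 to 73786897, minus strand), stood at 455, 536 and 602 CPM in knockout 1, 2 and 3, against 1248, 1181 and 1129 CPM in heterozygous 1, 2 and 3. The gap between the groups was larger than the spread within either. Idh3g fell by 1.16 on the log2 scale (SE 0.159, 95% interval -1.53 to -0.79, edgeR adjusted p = 0.0367), to 44.8% of the heterozygous-labelled level.

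**Figure D1:**
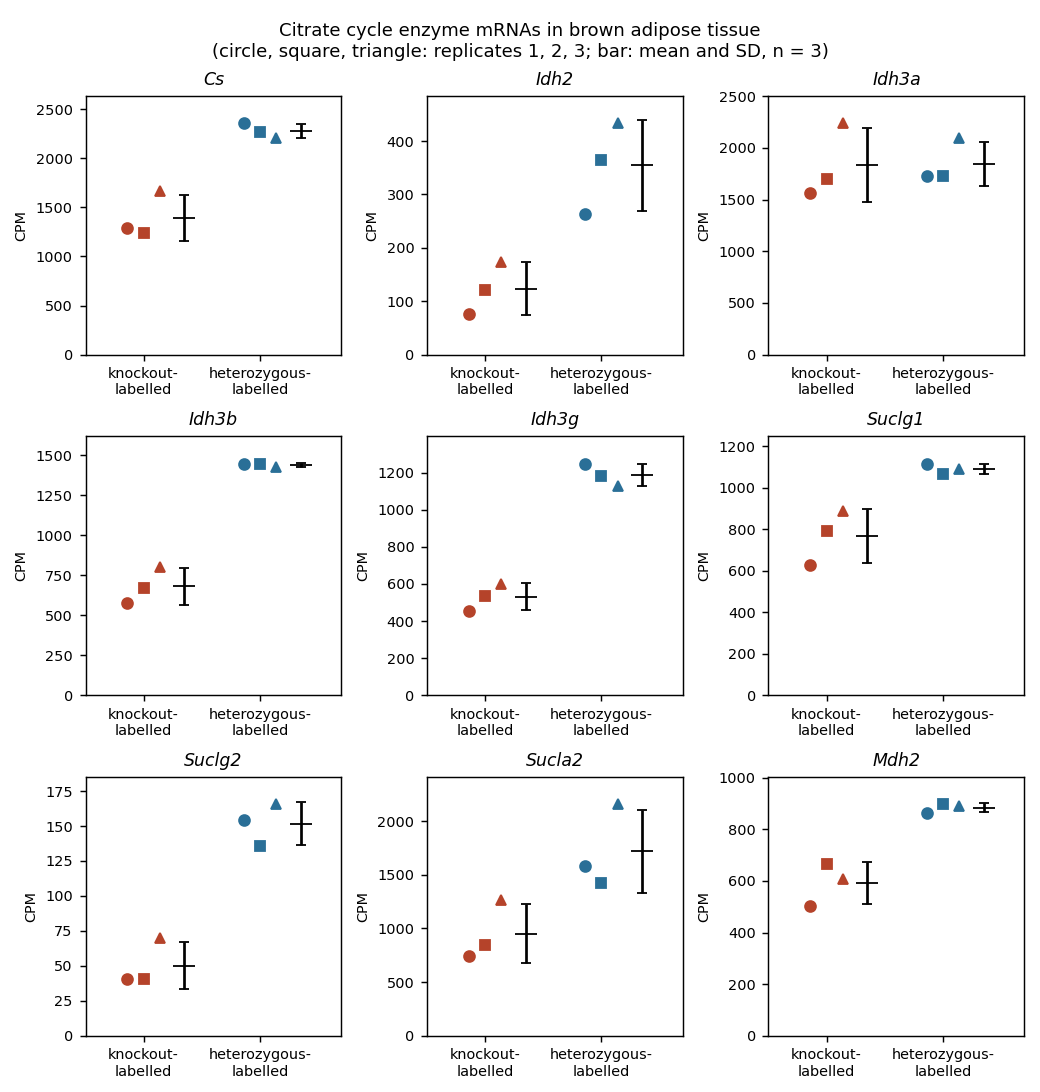
CPM of each of the 9 genes (vertical axes, linear from 0) in the 3 knockout-labelled (red) and 3 heterozygous-labelled (blue) libraries, 1 symbol per replicate, with the mean and SD of each group (n = 3) as a bar. The groups are apart in 8 panels, and in the Idh3a panel they overlap, at 1565 to 2238 against 1724 to 2092 CPM.

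Succinyl-CoA ligase turns succinyl-CoA into succinate and captures the energy as ATP or GTP. Its common alpha subunit Suclg1 (chromosome 6, 73248382 to 73276911, plus strand) stood at 626, 790 and 887 CPM in knockout 1, 2 and 3, against 1115, 1066 and 1091 CPM in heterozygous 1, 2 and 3. The groups did not overlap, though knockout 3 came near to the heterozygous-labelled libraries. The log2 fold change of -0.51 (SE 0.169, 95% interval -0.90 to -0.11) did not pass (edgeR adjusted p = 0.251).

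Suclg2, the beta subunit of the GTP-forming ligase (chromosome 6, 95473009 to 95718800, minus strand), stood at 40.5, 40.2 and 69.7 CPM in knockout 1, 2 and 3, against 154, 136 and 165 CPM in heterozygous 1, 2 and 3. It was the least abundant of the 9 transcripts per length in both groups and had the lowest fold change. Suclg2 fell by 1.60 on the log2 scale (SE 0.238, 95% interval -2.16 to -1.04, edgeR adjusted p = 0.0438), to 33.0% of the heterozygous-labelled level.

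Sucla2, the beta subunit of the ATP-forming ligase (chromosome 14, 73525319 to 73596142, plus strand), stood at 744, 849 and 1262 CPM in knockout 1, 2 and 3, against 1580, 1423 and 2157 CPM in heterozygous 1, 2 and 3. Knockout 3 and heterozygous 3, the libraries with RE titles, were each the highest of their group, and the groups did not overlap. The log2 fold change of -0.85 (SE 0.257, 95% interval -1.45 to -0.25) did not pass (edgeR adjusted p = 0.197), but did so with the title prefix as a covariate (adjusted p = 0.0226) and by DESeq2 (adjusted p = 0.0287).

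Mdh2, the mitochondrial malate dehydrogenase that regenerates oxaloacetate (chromosome 5, 135778480 to 135790398, plus strand), stood at 504, 665 and 609 CPM in knockout 1, 2 and 3, against 864, 897 and 891 CPM in heterozygous 1, 2 and 3. It was the only 1 of the 9 genes in which knockout 3 was not the highest knockout-labelled library. The log2 fold change of -0.58 (SE 0.154, 95% interval -0.94 to -0.22) did not pass by edgeR (adjusted p = 0.139) and passed by DESeq2 (adjusted p = 0.00822).

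**Figure D2:**
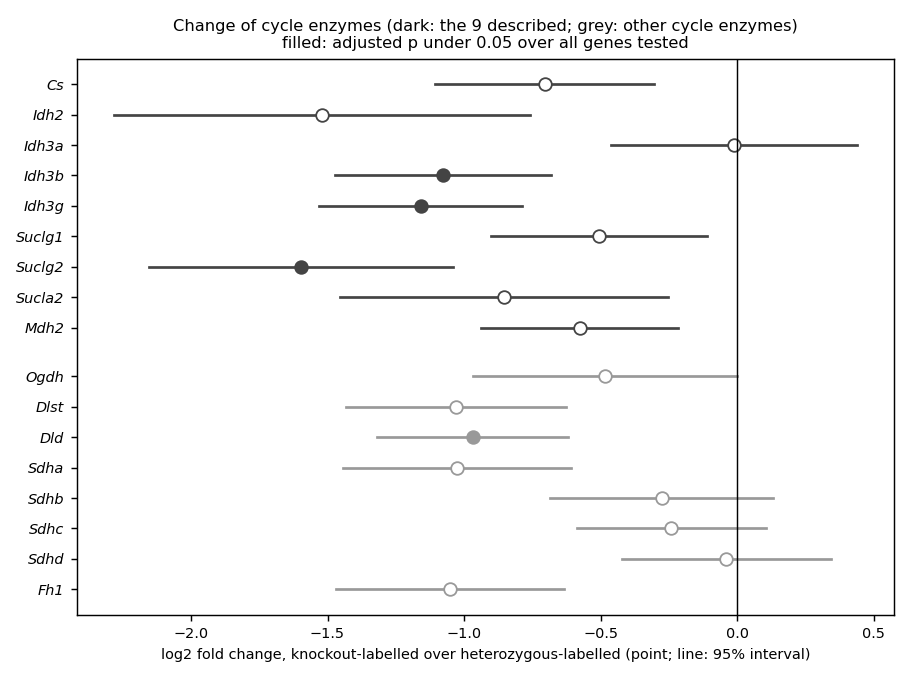
Log2 fold change of each cycle gene, knockout-labelled over heterozygous-labelled libraries (horizontal axis), with its 95% interval as a line, for the 9 genes (dark) and 8 other cycle enzymes (grey), and filled points where the edgeR adjusted p is under 0.05. Suclg2, Idh3g, Idh3b and Dld are filled, and the intervals of Idh3a, Sdhb, Sdhc and Sdhd include 0.

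Within the knockout-labelled group most of the 9 transcripts ordered the libraries alike. Knockout 3 was the highest knockout-labelled library for 8 of the 9 genes and knockout 1 the lowest for 7. In the heterozygous-labelled group no library took such a place, with heterozygous 1 and heterozygous 3 highest for 4 genes each. Knockout 1 also held the most muscle marker RNA of its group, 7631 CPM, against 4445 and 4288 CPM in knockout 2 and 3. Together the 9 genes took 0.584%, 0.675% and 0.770% of the reads in genes in knockout 1, 2 and 3, against 1.07%, 1.05% and 1.23% in heterozygous 1, 2 and 3.

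Library titles carry the prefix RF in 4 libraries and RE in knockout 3 and heterozygous 3, a prefix whose meaning the labels do not give. All 9 genes had log2 fold changes below 0 in the RF-titled libraries (2 against 2) and 8 of 9 in the RE-titled ones (1 against 1, without a test). The RF values come from an edgeR fit of those 4 libraries alone. The RE values are plain differences in log2 of CPM plus 0.5, scaled over all 6 libraries, so the measures differ. Suclg2 was at -1.85 and -1.24 in the RF-titled and RE-titled libraries, Idh3g at -1.30 and -0.91, and Idh3b at -1.22 and -0.83. Idh2 was at -1.68 and -1.31, Sucla2 at -0.92 and -0.77, Cs at -0.88 and -0.41, Suclg1 at -0.63 and -0.30, and Mdh2 at -0.59 and -0.55. Idh3a, at -0.08 and 0.10, was the nearest to 0 in both.

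When a muscle score (the 24 muscle markers' mean log2 CPM) was added as a covariate, none of the 13300 genes was called by edgeR (3 of the 9 were lower at an unadjusted p under 0.05, as were 1.4% of all genes), and the log2 fold change was lower than without it in 6 of the 9 genes. Suclg2 was then at -1.85, Idh3g at -1.51, Idh3b at -1.33, Cs at -0.91, Suclg1 at -0.83 and Mdh2 at -0.74. Idh2, Sucla2 and Idh3a were at -1.33, -0.81 and 0.01. The score separated the groups, at 6.92 to 7.71 in the knockout-labelled and 8.41 to 9.98 in the heterozygous-labelled libraries, so score and label can be told apart only in part.

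Levels of different genes can be compared only roughly after division by length, here the merged exon length in GENCODE M21. That length joins the exons of all annotated transcripts of a gene and can exceed that of the transcript expressed. The order of genes and the shares and ratios per kilobase below therefore depend on the annotation. The fold change of a gene between groups does not. In the knockout-labelled libraries Idh3a was the most abundant of the 9, at 361 ± 70.3 CPM per kilobase, followed by Cs (242 ± 40.4), Sucla2 (239 ± 68.7), Idh3b (199 ± 33.7), Idh3g (197 ± 27.2), Mdh2 (166 ± 23.0), Suclg1 (166 ± 28.6), Idh2 (47.7 ± 19.0) and Suclg2 (10.8 ± 3.67). In the heterozygous-labelled libraries Idh3g came first, at 439 ± 22.1 CPM per kilobase, followed by Sucla2 (431 ± 96.8), Idh3b (420 ± 2.93), Cs (394 ± 13.0), Idh3a (364 ± 41.7), Mdh2 (248 ± 4.99), Suclg1 (236 ± 5.33), Idh2 (137 ± 32.8) and Suclg2 (32.8 ± 3.26; SD, n = 3 throughout). Idh3a therefore ranked 1 in the knockout-labelled libraries and 5 in the heterozygous-labelled ones at nearly the same level. Neighbours from Cs to Suclg1 in the knockout-labelled order, and from Idh3g to Idh3b and Cs to Idh3a in the heterozygous-labelled order, had ranges over the 3 libraries that overlapped.

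Ratios between subunits within a library do not depend on how libraries are scaled. The log2 ratio of Idh3b to Idh3a was -1.45, -1.35 and -1.48 in knockout 1, 2 and 3, against -0.26, -0.26 and -0.55 in heterozygous 1, 2 and 3. That of Idh3g to Idh3a was -1.78, -1.66 and -1.89 in knockout 1, 2 and 3, against -0.47, -0.55 and -0.89 in heterozygous 1, 2 and 3. Both ratios were lower in all 3 knockout-labelled libraries, with a gap wider than either group's spread. The difference was -1.07 for Idh3b (SE 0.210, 95% interval -1.54 to -0.59) and -1.14 for Idh3g (SE 0.220, 95% interval -1.64 to -0.65). Adjusted over the ratios of all 13299 other genes to Idh3a, of which 0.0376% passed, neither did (limma adjusted p = 0.0799 for both). The exact two-sided permutation test gave p = 0.1, the smallest that 3 against 3 allows, and 0.175 adjusted over the 7 ratios examined, here and for both Suclg2 ratios described below.

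Between Idh3b and Idh3g themselves no such shift was seen. Their log2 ratio (Idh3g over Idh3b) was -0.33, -0.32 and -0.41 in knockout 1, 2 and 3, against -0.21, -0.29 and -0.34 in heterozygous 1, 2 and 3, and the groups overlapped. The difference was -0.08 (SE 0.183, 95% interval -0.49 to 0.34, limma adjusted p = 0.696, where 89% of all genes passed relative to Idh3b), an interval that leaves room for a change of up to 0.49 on the log2 scale. Per kilobase, Idh3a made up 47.6% ± 1.57 of the 3 subunit transcripts in the knockout-labelled libraries and 29.7% ± 2.90 in the heterozygous-labelled ones. Idh3b made up 26.3% ± 0.437 and 34.4% ± 0.877, and Idh3g 26.1% ± 1.22 and 35.9% ± 2.17, in the knockout-labelled and heterozygous-labelled libraries (SD, n = 3 each). At these merged exon lengths the alpha to beta plus gamma ratio was 0.911 ± 0.0571 in the knockout-labelled libraries and 0.425 ± 0.0601 in the heterozygous-labelled ones. The size of this ratio in either group depends on the lengths used. Idh2, the NADP-dependent enzyme, stood at 0.129 ± 0.0302 of the Idh3a level per kilobase in the knockout-labelled libraries and at 0.374 ± 0.0639 in the heterozygous-labelled ones.

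**Figure D3:**
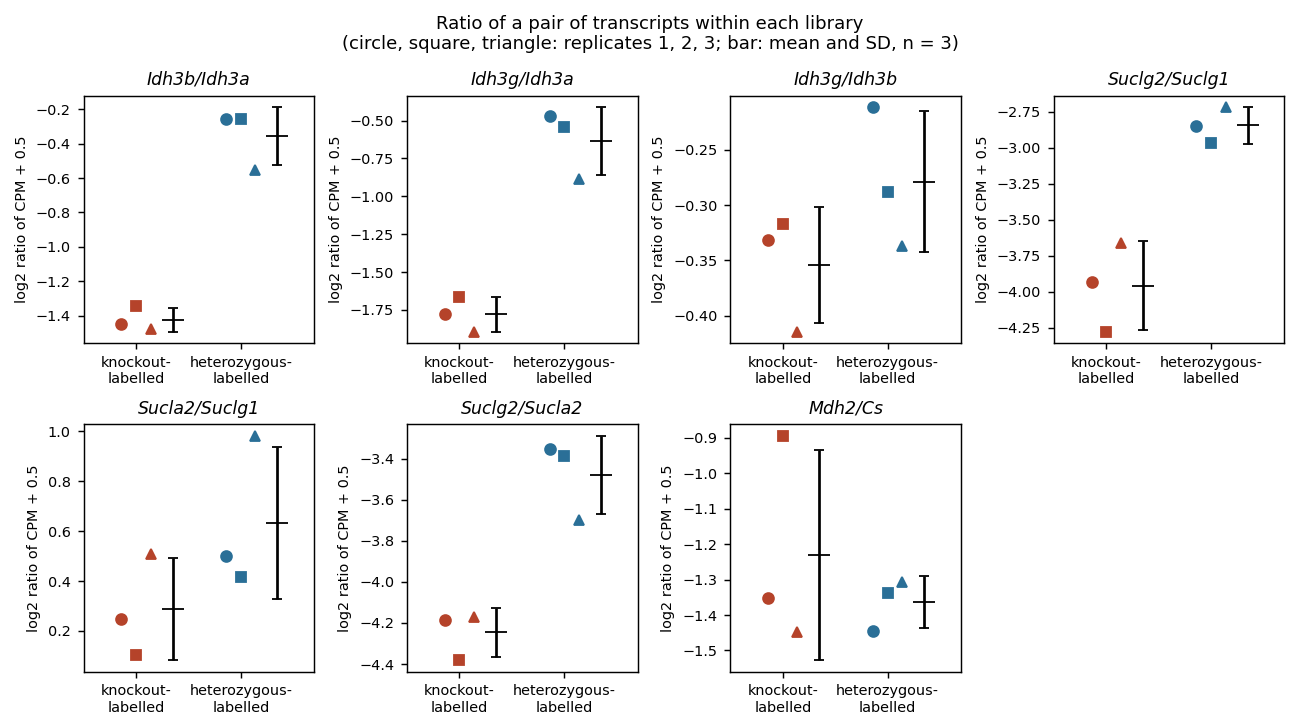
Log2 ratio of CPM plus 0.5 for 7 pairs of transcripts (vertical axes, each on its own scale) in the 3 knockout-labelled (red) and 3 heterozygous-labelled (blue) libraries, 1 symbol per replicate, with mean and SD (n = 3). The groups are apart for Idh3b/Idh3a, Idh3g/Idh3a, Suclg2/Suclg1 and Suclg2/Sucla2, and overlap for Idh3g/Idh3b, Sucla2/Suclg1 and Mdh2/Cs.

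In succinyl-CoA ligase the ratios of the GTP-forming beta subunit to the alpha subunit and to the other beta subunit were lower in all 3 knockout-labelled libraries. The log2 ratio of Suclg2 to Suclg1 was -3.94, -4.28 and -3.66 in knockout 1, 2 and 3, against -2.85, -2.97 and -2.72 in heterozygous 1, 2 and 3. That of Suclg2 to Sucla2 was -4.18, -4.38 and -4.17 in knockout 1, 2 and 3, against -3.35, -3.39 and -3.70 in heterozygous 1, 2 and 3. Neither pair of groups overlapped. The difference was -1.11 against Suclg1 (SE 0.228, 95% interval -1.63 to -0.60, limma adjusted p = 0.0691, with 0.0226% of all genes passing) and -0.77 against Sucla2 (SE 0.320, 95% interval -1.44 to -0.09, limma adjusted p = 0.0573, with 40.5% of all genes passing), so neither passed. Both passed in the RF-titled libraries alone, at differences of -1.20 and -0.91 (limma adjusted p = 0.0437 and 0.00564). Without knockout 3 both passed too, at -1.26 and -0.80 (limma adjusted p = 0.0233 and 0.0276). For those fits the share of all genes passing is not given here, so the passes are not read as particular to Suclg2.

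For the ATP-forming beta subunit the groups were not apart. The log2 ratio of Sucla2 to Suclg1 was 0.25, 0.10 and 0.51 in knockout 1, 2 and 3, against 0.50, 0.42 and 0.98 in heterozygous 1, 2 and 3. Within each group the RE-titled library was the highest. Within each title prefix the knockout-labelled values were lower, at differences of -0.28 (RF) and -0.47 (RE, 1 against 1). Over all 6 libraries the difference of -0.35 (SE 0.235, 95% interval -0.88 to 0.19) did not pass (limma adjusted p = 0.236). Per kilobase, Suclg2 made up 4.48%, 3.93% and 4.55% of the beta subunit transcripts in knockout 1, 2 and 3, against 7.77%, 7.59% and 6.21% in heterozygous 1, 2 and 3, so that Sucla2 was the main beta subunit transcript in all 6 libraries. The beta subunits together stood at 1.49 ± 0.219 times the alpha subunit in the knockout-labelled libraries and at 1.96 ± 0.416 times in the heterozygous-labelled ones (SD, n = 3 each), and the groups overlapped, at 1.29 to 1.73 against 1.67 to 2.44.

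**Figure D4:**
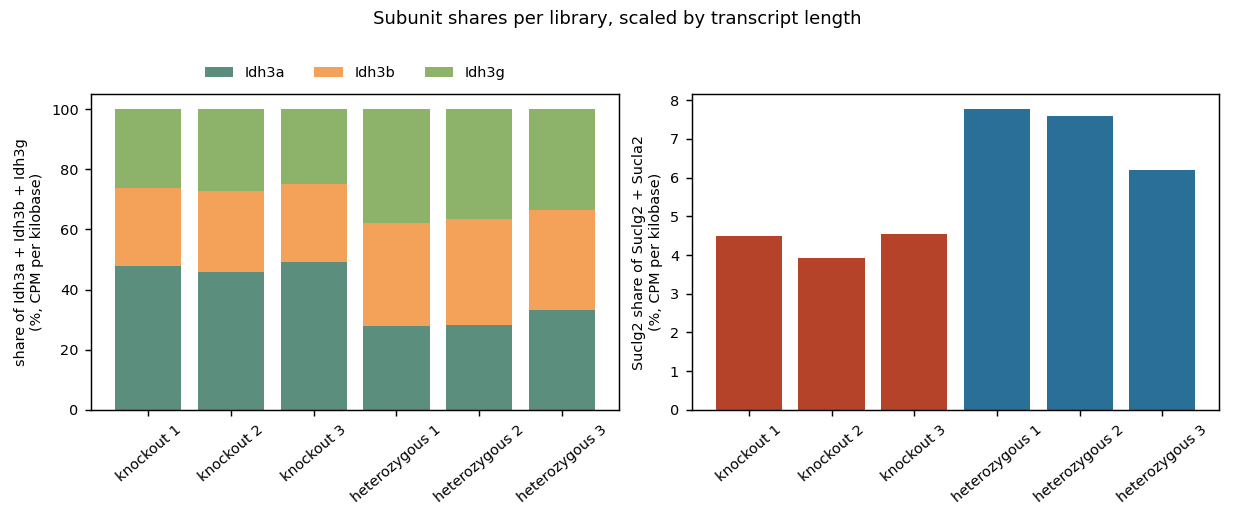
Left, shares of Idh3a, Idh3b and Idh3g in their summed CPM per kilobase, and right, the share of Suclg2 in the summed CPM per kilobase of Suclg2 and Sucla2 (vertical axes in percent from 0), for each library, knockout-labelled before heterozygous-labelled. Idh3a takes 46.0% to 49.1% in the knockout-labelled and 27.8% to 33.1% in the heterozygous-labelled libraries, and Suclg2 takes 3.93% to 4.55% and 6.21% to 7.77%.

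Mdh2 makes the oxaloacetate that Cs uses, and their ratio overlapped between the groups. The log2 ratio of Mdh2 to Cs was -1.35, -0.89 and -1.45 in knockout 1, 2 and 3, against -1.45, -1.34 and -1.31 in heterozygous 1, 2 and 3. The knockout-labelled values lay on both sides of the others. The difference was 0.13 (SE 0.215, 95% interval -0.36 to 0.62, limma adjusted p = 0.576, where 62.9% of all genes passed relative to Cs) and changed sign without knockout 2, to -0.04.

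Other enzymes of the cycle lay below 0 too. Of 8 tested (Ogdh, Dlst, Dld, Sdha, Sdhb, Sdhc, Sdhd and Fh1), 1 fell and none rose, and the median log2 fold change was -0.73. In 6 of the 8 the knockout-labelled libraries lay below the others without overlap. Over all genes tested, 0.534% were called lower, 0.0526% were called higher and 9.89% lay below without overlap. The gene that fell was Dld, the dihydrolipoyl dehydrogenase subunit shared by several ketoacid dehydrogenases, at 641 ± 66.6 CPM in the knockout-labelled and 1254 ± 70.0 CPM in the heterozygous-labelled libraries (SD, n = 3 each; log2 -0.97, SE 0.150, edgeR adjusted p = 0.0475). That call was lost in 9 of the alternatives, 5 of which left out 1 library. Chosen after their values were seen, the subunits of succinate dehydrogenase had unequal fold changes. Sdha, the flavoprotein that oxidises succinate, was at -1.03 (adjusted p = 0.0631), whereas Sdhb, Sdhc and Sdhd, the iron-sulfur and membrane subunits, were at -0.28, -0.24 and -0.04 by edgeR. The difference between Sdha and the other subunits was not tested.

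Among 8 enzymes that feed or drain the cycle none was called by edgeR (3 lower and 0 higher at an unadjusted p under 0.05, against 8.04% lower and 4.05% higher over all genes), with a median of -0.65. Me2, a mitochondrial malic enzyme (log2 -0.57, adjusted p = 0.138), and Got2, the mitochondrial aspartate aminotransferase (log2 -0.97, adjusted p = 0.165), came first in that list by p (edgeR). With the muscle score as a covariate Me2 was at -0.57 and Got2 at 0.09. Among 6 cytosolic counterparts none was called by edgeR (1 lower and 1 higher at an unadjusted p under 0.05) and the median was 0.05. Got1, the cytosolic aspartate aminotransferase, was at -1.06 (edgeR adjusted p = 0.133), but at 0.32 with the muscle score as a covariate. Acly, which splits exported citrate into acetyl-CoA and oxaloacetate, was at 0.87 (edgeR adjusted p = 0.408), but at 0.13 with that covariate. Chosen after their values were seen, the cytosolic isocitrate dehydrogenase Idh1 was at -0.24 (edgeR adjusted p = 0.824), against -1.52 for the mitochondrial Idh2. The cytosolic malate dehydrogenase Mdh1, chosen likewise, was at 0.24 (edgeR adjusted p = 0.675), against -0.58 for the mitochondrial Mdh2. Got1 and Got2 did not differ in that way, at -1.06 and -0.97. Differences within these pairs were not tested. Of 5 carriers of cycle intermediates 4 were tested and none was called by edgeR (1 lower and 0 higher at an unadjusted p under 0.05). Slc25a12, an aspartate-glutamate carrier, was at -2.07 (edgeR adjusted p = 0.0736) but at 0.01 with the muscle score as a covariate. Slc25a10, the dicarboxylate carrier, was at 0.58 (edgeR adjusted p = 0.514), and at 0.31 with that covariate. By an unadjusted p under 0.05 of edgeR, which 8.04% of all genes tested passed as lower and 4.05% as higher, 8 of the 9 genes described here were lower and none higher.

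**Figure D5:**
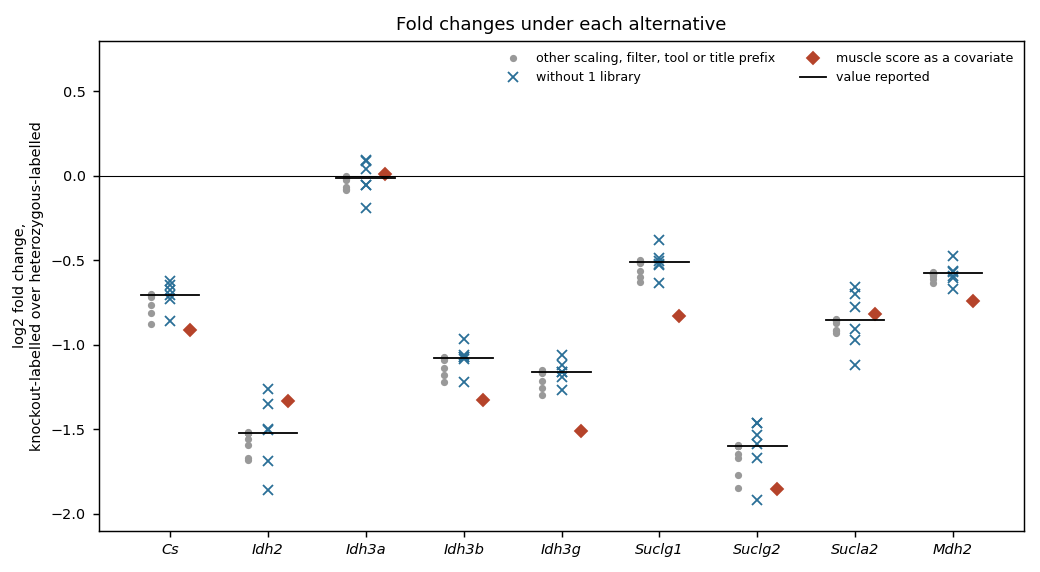
Log2 fold change of each of the 9 genes (vertical axis) as reported (black line), under other scalings, filters, tools or title prefix settings (grey), without 1 library (blue crosses) and with the muscle score as a covariate (red diamonds). Idh3a stays between -0.19 and 0.09, and the other 8 genes lie below 0 under every alternative drawn.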

How the data were processed

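Brown adipose tissue RNA from 3 mice per genotype label was sequenced, and the authors deposited raw read counts per gene symbol, with 1 column per library. Build mm10 and the tools HTSeq, edgeR, STAR 2.7.2b, Bowtie2 2.3.4.3, SAMtools 1.9 and Trim Galore appear, without roles, in the submitters' processing notes. Not given in the sources used here: annotation and strand setting. The 5 closing lines that name no gene, 41.7% to 49.0% of the column total in knockout-labelled and 51.6% to 56.1% in heterozygous-labelled libraries, entered neither library sizes nor tests.

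Groups follow the genotype label, and replicates were numbered in accession order, which pairs nothing. Nothing says that libraries of a group came from separate litters or preparations, so p-values measure the spread between these libraries. Counts were tested with edgeR 4.0.16 (R 4.3.3): TMM scaling, filterByExpr (minimum count 10, minimum total 15), robust quasi-likelihood F test on the label, and a Benjamini-Hochberg adjusted p of 0.05 as the threshold. Biological variation came to a coefficient of 24.7%. Ratios used log2 of CPM plus 0.5, limma 3.58.1 and an exact permutation test. The tests were tried on simulated data. DESeq2 1.42.0 and the other alternatives are in the closing section. Lengths and positions are from GENCODE M21 (GRCm38), which may differ from the annotation used for counting.

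The 9 genes and all lists were chosen with earlier results of these data known. Named beside the 9 were called genes of each other list or, with none called, the 2 with the smallest p; Fam195a; and genes said to be chosen after their values were seen.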

Additional observations from a re-analysis of the deposited data

How the results depend on the processing

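No paired analysis was possible because the labels give no replicate numbers shared between the groups. The direction below 0 of the 8 genes other than Idh3a held under every alternative fitted. Idh3a turned positive without heterozygous 3 (0.0892), knockout 1 (0.0937) or knockout 2 (0.0439), was lowest without knockout 3 (-0.187), and stood at 0.0121 with the muscle score as a covariate. The count of 3 genes lower was 7 by DESeq2, 5 by limma-voom with quality weights, 5 with the title prefix as a covariate, 0 with the muscle score and 0 to 3 without single libraries, and the other alternatives gave 2 to 4. Of all genes tested, 5.04% were called lower by DESeq2, 1.24% by limma-voom and 1.83% with the title prefix, against 0.534% as reported. The same fits without knockout 1, knockout 2 or heterozygous 2 called 0 of all genes tested, against 78 with all 6 libraries, 8 without heterozygous 3, 111 without knockout 3 and 400 without heterozygous 1. No gene of the 9 was called higher under any alternative. Their median ran from -1.12 (without knockout 3) to -0.70 (without knockout 1).

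The count of other cycle enzymes lower, 1 as reported, was 4 by DESeq2, by limma-voom, in the RF-titled libraries alone, with the title prefix, with library size only, with no filter and at an adjusted p of 0.1. It was 0 with RLE scaling, without robust estimation, with muscle markers left out of the library sizes and with the muscle score, and 0 to 4 without single libraries. Of all genes tested, 3.31% were called lower at an adjusted p of 0.1 and 0.85% in the RF-titled libraries alone. With library size only the share was 0.684%, and with no filter 0.541%. Of the enzymes that feed or drain the cycle, 2 were lower by DESeq2, 1 with the title prefix, 1 in the RF-titled libraries and 0 to 1 without single libraries. Of cytosolic counterparts 1 was lower by DESeq2 and 0 to 1 without single libraries. Of carriers 1 was lower by DESeq2, 1 at an adjusted p of 0.1 and 0 to 1 without single libraries. Without heterozygous 1 the count was 1 for the enzymes that feed or drain the cycle, for the counterparts and for the carriers. That fit called 2.81% of all genes tested lower. With the muscle score Got1 (0.319), Got2 (0.0885) and Slc25a12 (0.0100) changed sign. Fam195a was at 0.0325 without heterozygous 3, at 0.0173 without knockout 1 and lowest, at -0.295, without knockout 3. The cause was not tested.

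With 2 CPM added in place of 0.5, the ratio differences passed for Suclg2/Suclg1 (-1.08, limma adjusted p = 0.0457) and Suclg2/Sucla2 (-0.74, limma adjusted p = 0.0480). In the RF-titled libraries they were -1.20 and -0.91, and without single libraries -1.26 to -0.95 and -0.88 to -0.70. The share of all genes passing with 2 CPM added is not given here. Mdh2/Cs ran from -0.0374 to 0.24 without single libraries. The Idh3b/Idh3a and Idh3g/Idh3a differences, at -1.17 to -1.02 and -1.27 to -1.06 without single libraries, did not pass in any of these fits.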
